A study of Mus musculus with 6 samples.

Results

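Among single cells of the mouse liver, 1820 carried the transcripts of Kupffer cells, the resident macrophages of the liver, but no transcript of the receptor genes Timd4, Marco or Cd163. They were found among 27544 kept cells from 33168 deposited barcodes. A cell was kept with under 5000 genes detected and under 5% of its unique molecular identifiers (UMIs, each marking 1 captured transcript) from mitochondrial genes. A kept cell passed the Kupffer gate with 3 or more UMIs of Clec4f, Vsig4 and Cd5l together, 5 or more of C1qa, C1qb and C1qc together and at most 1 of the endothelial genes Kdr and Ptprb together. The gate held 2882 cells. Those with 0 UMIs of Timd4, Marco and Cd163 were termed triple-negative Kupffer-like cells, and the other 1062, with at least 1, receptor-positive Kupffer cells. The cells were thus chosen by the measured counts of these 11 genes, whose values are given as a description with no test.

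The cells were liver non-parenchymal cells, that is, liver cells other than hepatocytes, of male C57BL/6J mice with nonalcoholic steatohepatitis (NASH), counted by droplet sequencing on the 10X Genomics Chromium system. All mice were bought at 8 weeks of age and fed a high-fat diet (HFD) for 24 weeks, which is the disease model, and no group in these tables was on a chow diet. In the last 8 weeks the vehicle group (control) received DMSO and the ginkgetin group received ginkgetin, a biflavone from Ginkgo biloba leaves, at 10 mg/kg per day, both into the stomach. There were 3 libraries per group, labelled replicates 1, 2 and 3, and the comparison asks how ginkgetin-treated mice differed from vehicle-treated mice with the same diet. The labels do not tie a library to a number of mice, so p-values measure the spread between these libraries, which may be technical.

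The libraries held 3577 to 8119 barcodes and 13128697 to 61796882 UMIs. Replicate 3 of both groups stood apart from replicates 1 and 2: it shared at most 1 barcode with any of them, whereas the other 4 libraries shared 23 to 85 barcodes pairwise, and 506 gene symbols had 100 or more UMIs in replicate 3 and none in the others and 369 had 100 or more in replicates 1 and 2 and none in replicate 3, all left out of the tests. Values among replicates 1 and 2 alone are given beside the main results. Intervals, and the limits that a count of 0 allows (3 counts), reflect counting error and nothing else.

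Kupffer cells line the liver sinusoids and take up dying cells, microbes, haemoglobin and iron from the blood. Timd4 binds phosphatidylserine on dying cells and marks long-lived Kupffer cells of embryonic origin, Marco is a scavenger receptor for bacteria and particles, and Cd163 takes up haemoglobin bound to haptoglobin. In steatohepatitis, monocytes that enter the liver are known to take on Clec4f and other Kupffer genes before Timd4, and macrophages near lipid-laden hepatocytes are known for Trem2, Gpnmb, Cd9 and Spp1.

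The triple-negative cells made up most of the Kupffer gate in vehicle-treated mice and a small part of it in ginkgetin-treated mice. Vehicle replicates 1, 2 and 3 held 747, 460 and 502 of them, and ginkgetin replicates 1, 2 and 3 held 13, 30 and 68. The receptor-positive cells numbered 177, 109 and 163 in the vehicle libraries and 82, 107 and 424 in the ginkgetin libraries. The triple-negative share of the gate was therefore 80.8, 80.8 and 75.5% against 13.7, 21.9 and 13.8%, with no overlap between the groups. The mean shares of 79.1% ± 3.09 and 16.5% ± 4.70 (SD, n = 3 each) differed by -62.6 percentage points (two-sided exact permutation test, p = 0.10, the lowest value possible with 3 libraries per group). Among replicates 1 and 2 alone the difference was -63.1 points (exact permutation p 0.333, again the lowest possible).

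Of all kept cells, the triple-negative cells were 12.8% ± 0.885 with vehicle and 0.891% ± 0.846 with ginkgetin (SD over 3 libraries; exact permutation p 0.10). The whole Kupffer gate was 16.2% ± 0.853 and 6.07% ± 6.45 of the kept cells. Ginkgetin replicate 3, in which 13.5% of cells passed the gate, lay nearest to the vehicle libraries in that total but not in the triple-negative share. At 250 to 5000 UMIs per cell, the triple-negative cells were 2.82, 5.72 and 3.43% of kept cells with vehicle. With ginkgetin they were 0.367, 0.502 and 4.75%, so the groups overlapped. The whole gate was then 3.36, 7.20 and 4.01% against 2.77, 2.26 and 28.7% of kept cells. Of the 1820 triple-negative cells, 1709 were in the vehicle libraries and 111 in the ginkgetin libraries.

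**Figure D1:**
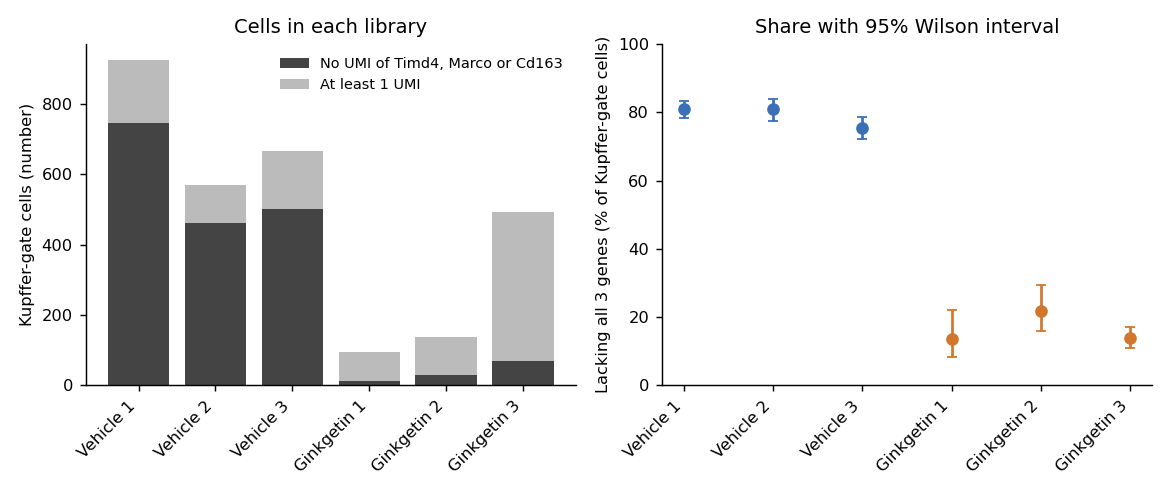
Triple-negative and receptor-positive Kupffer-gate cells in each of the 6 libraries, as cell numbers and as the triple-negative share of the gate in percent. The 3 vehicle libraries lie at 75.5 to 80.8% and the 3 ginkgetin libraries at 13.7 to 21.9%.

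A count of 0 depends on the depth of a cell, and depth differed between the groups. The triple-negative cells had medians of 9833, 7750 and 17744.5 UMIs in the vehicle libraries and of only 2201, 1599 and 1251.5 in the ginkgetin libraries. The receptor-positive cells had medians of 11207, 6868 and 21139 against 2255, 1825 and 2640 UMIs. Fewer UMIs leave more cells at 0, and the shallower group was the one with the lower share. From 2000 to under 4000 UMIs per cell the triple-negative share was 83.9, 84.3 and 93.5% in the vehicle libraries and 10.8, 18.8 and 7.75% in the ginkgetin libraries, a mean difference of -74.8 points. Under 2000 UMIs the ginkgetin shares were 15.8, 24.7 and 24.8%. At 4000 or more UMIs, ginkgetin replicates 1, 2 and 3 had 20, 4 and 140 gate cells, of which 3, 0 and 5 were triple-negative. In ginkgetin replicate 3 the share was 2.33% from 4000 to under 8000 and 4% from 8000 to under 16000 UMIs. With cells thinned to 2000 UMIs before the zero gate and shallower cells left out, which left 57, 52 and 282 gate cells in the ginkgetin libraries, the shares were 89.1% ± 0.731 and 20.1% ± 4.57 (SD, n = 3 each).

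In ginkgetin replicates 2 and 3, 0 UMIs of the 3 genes could not be told apart from the receptor-positive level at this depth. A count of 0 at the median depth of the triple-negative cells allows up to 305, 387 and 169 CPM (UMIs scaled to the total UMIs of the summed cells) in the vehicle libraries and 1363, 1876 and 2397 CPM in the ginkgetin libraries. The 3 genes together stood at 719, 607 and 346 CPM in the receptor-positive cells of vehicle-treated mice, above the first limits. In those of ginkgetin-treated mice they stood at 1591, 1700 and 1963 CPM, above the limit in replicate 1 and below it in replicates 2 and 3. At the border of the gate, 46, 37 and 52 receptor-positive cells of the vehicle libraries and 16, 28 and 73 of the ginkgetin libraries had exactly 1 UMI of the 3 genes. Counting these as triple-negative gave shares of 85.5% ± 2.04 and 33.8% ± 7.42.

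**Figure D2:**
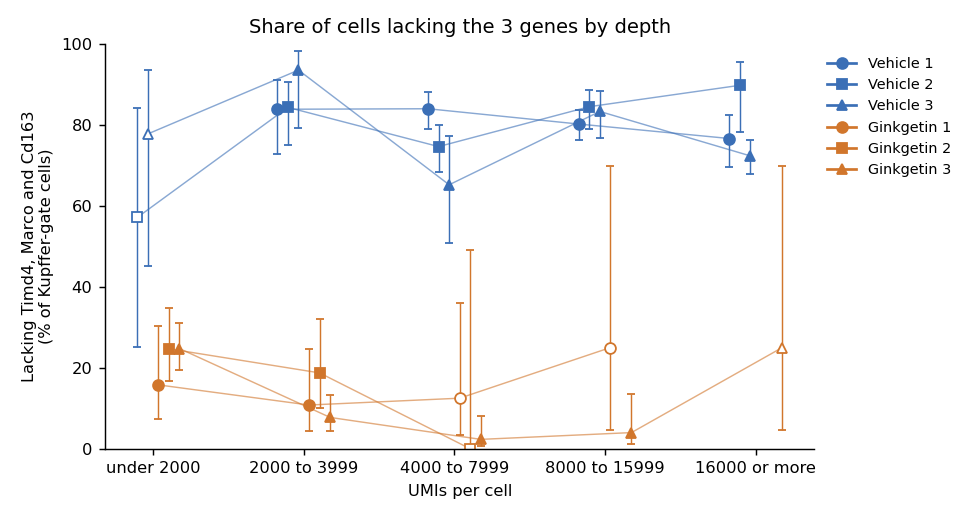
Triple-negative share of the Kupffer gate, in percent with 95% Wilson intervals, in bins of UMIs per cell for each library, with open symbols for bins under 20 cells. In each bin that both groups fill with 20 or more cells, the vehicle libraries lie above the ginkgetin libraries.

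At the other edges of the rule, 69, 33 and 51 cells of the vehicle libraries missed it by 1 UMI of Clec4f, Vsig4 and Cd5l, and 27, 19 and 18 met it with exactly 3. In the ginkgetin libraries 2, 5 and 3 missed it by 1 UMI and 1, 2 and 2 met it with exactly 3. With 2 UMIs of Kdr and Ptprb, 6, 3 and 1 vehicle cells and 0, 5 and 1 ginkgetin cells otherwise met the rule. Exactly 5 UMIs of C1qa, C1qb and C1qc were held by 0, 0 and 0 vehicle and 0, 1 and 7 ginkgetin triple-negative cells. The limit of 5000 genes left out 5, 0 and 75 cells of the vehicle libraries, and none of the ginkgetin libraries, that met the rest of the rule.

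Of the label markers of Kupffer cells, Clec4f and Cd5l belong to the gate. Their presence was thus set largely by the rule and is given as a description. Clec4f, the lectin that defines mouse Kupffer cells, stood at 1274, 1112 and 1598 CPM in the triple-negative cells of vehicle-treated mice and at 1309, 2438 and 1935 CPM in those of ginkgetin-treated mice. It stood higher in the receptor-positive cells of the same libraries, at 2918, 3024 and 3791 CPM and at 2219, 3202 and 4837 CPM. With each cell thinned to 1000 UMIs, a Clec4f UMI was seen in 42.6 to 47.3% of the triple-negative and in 82.6 to 91.4% of the receptor-positive cells of the vehicle libraries. In the ginkgetin libraries these ranges were 76.9 to 90.0% and 86.0 to 97.0%, and in T cells of all libraries (cells with 2 or more UMIs of Cd3d, Cd3e and Cd3g) 0.50 to 2.64%. Cd5l, a secreted scavenger-receptor protein of tissue macrophages, was seen in 84.7 to 89.7% of the triple-negative cells of the vehicle libraries. In T cells of all libraries it was seen in 0.92 to 6.26%. Of the label markers that the rule did not use, Cd207 and Folr2 were detected in all 6 libraries and Mmp12 in all but ginkgetin replicate 1.

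Within the triple-negative cells, lipid-associated genes were seen in fewer cells of ginkgetin-treated mice, whereas the shares with Folr2 overlapped between the groups. Shares are of cells with a UMI after thinning to 1000 UMIs, which left out 20 cells of ginkgetin replicate 3 and none elsewhere. Trem2, a receptor for lipids and lipoproteins, was seen in 45.1, 53.3 and 59.6% of the cells of vehicle replicates 1, 2 and 3 and in 0, 10 and 2.08% of those of ginkgetin replicates 1, 2 and 3. The groups did not overlap, and the means of 52.6% ± 7.24 and 4.03% ± 5.28 differed by -48.6 points. Gpnmb, a glycoprotein of lysosome-rich macrophages, was seen in 18.5, 19.6 and 36.7% of the vehicle cells. It was seen in 0 of 13, 30 and 48 ginkgetin cells, which allows a share of up to 23.1, 10 and 6.25%. The limit in ginkgetin replicate 1 is thus above 2 of the 3 vehicle values. Mmp12, the macrophage elastase, was seen in 25, 20 and 29.3% of the vehicle cells and in 0, 6.67 and 2.08% of the ginkgetin cells.

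Cd207, the lectin langerin, was seen in 30.9, 19.8 and 19.7% of the vehicle cells and in 15.4, 6.67 and 18.8% of the ginkgetin cells. The lowest vehicle and the highest ginkgetin value differed by less than 1 point, and with cells thinned to 2000 UMIs the mean difference turned from -9.88 to 12.8 points. Trem2, Gpnmb, Mmp12 and Cd207 each had an exact permutation p of 0.10, the smallest possible (adjusted over the 6 genes, 0.15). Clec1b, a platelet-binding lectin of Kupffer cells, was seen in 46.8% ± 3.24 and 38.3% ± 7.98 of cells, and the groups overlapped (exact permutation p 0.2, adjusted 0.24, n = 3 each). Folr2, the folate receptor of tissue macrophages, was seen in 32.1% ± 5.91 and 36.7% ± 6.03 of cells (exact permutation p 0.4, adjusted 0.4, n = 3 each). Without thinning, the mean shares were 88.8 and 13.1% for Trem2, 58.9 and 0.490% for Gpnmb, 49.4 and 3.82% for Mmp12, 47.2 and 22.7% for Cd207, 91.6 and 60.2% for Clec1b and 69.6 and 44.5% for Folr2. In T cells, which should lack these 6 genes, the thinned shares were 0 to 1.51%, at the same 1000 UMIs per cell.

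**Figure D3:**
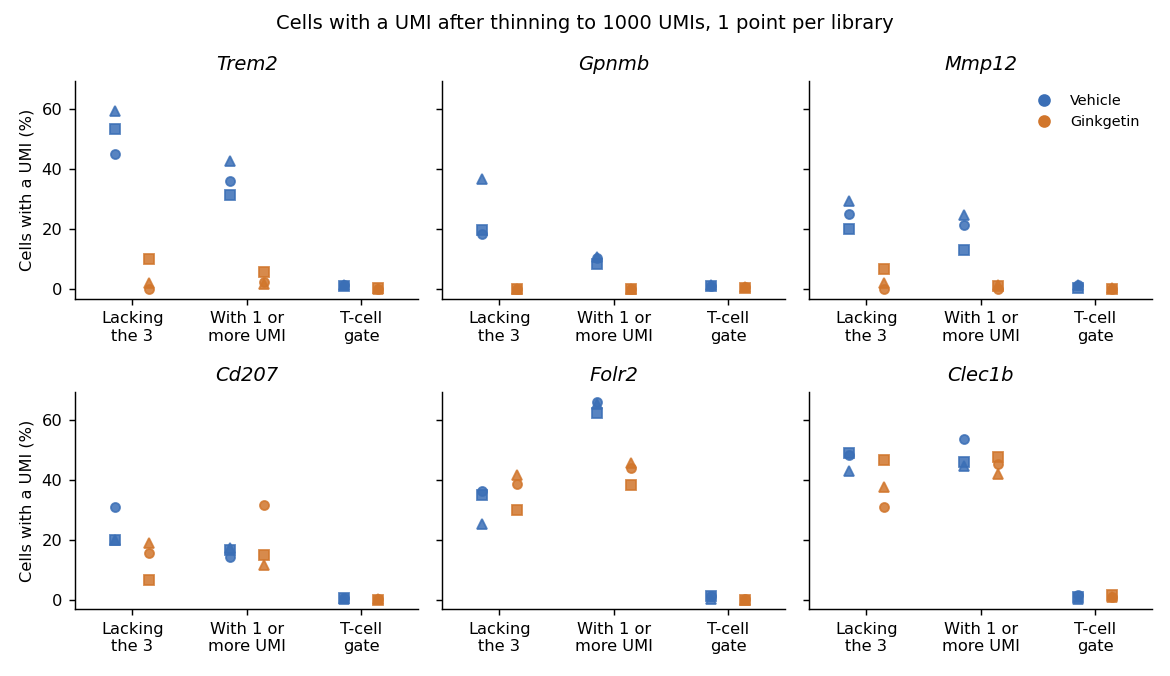
Percent of cells with a UMI of each of 6 genes after thinning to 1000 UMIs, 1 point per library (circle, square and triangle for replicates 1, 2 and 3), in triple-negative cells, receptor-positive cells and T cells of both groups. Trem2, Gpnmb and Mmp12 separate the vehicle from the ginkgetin triple-negative cells, and Folr2 does not.

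The lipid-associated genes also varied among the triple-negative cells of vehicle-treated mice. With cells thinned to 2000 UMIs, Gpnmb was seen in 35.2, 37.9 and 56.3% of the cells with a Trem2 UMI in vehicle replicates 1, 2 and 3. It was seen in 14.3, 9.15 and 22.5% of the cells without one. Among cells with a Folr2 UMI, Gpnmb was seen in 22.2, 22.0 and 30.8%, against 32.9, 35.6 and 58.4% of the cells without. Gpnmb thus went with Trem2 and against Folr2 in each of the 3 vehicle libraries. With a Mmp12 UMI the Gpnmb shares were 40.5, 37.1 and 57.5%, against 21.0, 25.9 and 42.1% without. The ginkgetin libraries had 7, 9 and 16 triple-negative cells of that depth, too few for such shares.

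Counts of the triple-negative cells were then summed per library and compared between the groups. Most lipid-associated genes fell in ginkgetin-treated mice. Of 10 complement genes tested 3 rose, and of 11 Kupffer identity genes 3 rose and 1 fell. The quasi-likelihood test of edgeR called 321 of 8413 genes (3.82%), which passed an adjusted p under 0.05 with over 2-fold change, 104 of them higher (1.24%) and 217 lower (2.58%). Of 16 lipid-associated genes, 12 fell and 0 rose, and the median of their log2 fold changes was -2.80, beside -0.17 for all genes tested. With the barcode set (replicate 3 against replicates 1 and 2) as a block, all 16 fell.

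The split between rises and falls was not stable. With the scaling unchanged, 69 genes were higher and 26 lower at 250 to 5000 UMIs per cell. Without vehicle replicate 3, 398 were higher and 225 lower. The split also rested on the scaling. TMM, the scaling used, lowered the log2 fold changes by a mean of 0.597 relative to plain CPM. Scaled to library totals instead, the median over all genes was 0.40, and 378 genes were higher and 47 lower. With DESeq2's size factors it was -0.06, with 103 higher and 108 lower. The lipid-associated genes fell under each, 11 of 16 in both cases. Falls among the genes named below that were not called with library totals are said so beside them.

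The number of genes called also rested on single libraries. It was 46, 28 and 623 without vehicle replicate 1, 2 and 3, and 38, 19 and 11 without ginkgetin replicate 1, 2 and 3. Among replicates 1 and 2 alone it was 526. Of the lipid-associated genes, 5 to 9 fell when any 1 library was left out. Trem2, Gpnmb, Cd63, Lgals3, C4b and C6 passed in all 6 of these fits. Each other lipid-associated gene that fell lost its call without at least 1 library, as did the genes named below from the Kupffer identity, complement, scavenger, lysosome, iron, monocyte, interferon, stress and cell cycle lists, other than C4b and C6.

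Trem2 stood at 891, 1194 and 1284 CPM in vehicle replicates 1, 2 and 3 and at 151, 89.0 and 117 CPM in ginkgetin replicates 1, 2 and 3. All ginkgetin values lay under all vehicle values, a log2 fold change of -3.85 ± 0.37 (SE; adjusted p 9.25e-05 by edgeR). Gpnmb was counted 2670, 1746 and 6608 times in the vehicle libraries and 0, 0 and 1 times in the ginkgetin libraries. The pooled ratio of ginkgetin to vehicle was 0.0076 (95% counting interval 0.000192 to 0.0424), with an adjusted p of 8.48e-05 by edgeR. Cd63, a tetraspanin of late endosomes, stood at 769, 678 and 974 CPM against 0, 35.6 and 19.5 CPM, and its log2 fold change was -5.91 ± 0.50 (adjusted p 5.66e-05 by edgeR). Trem2, Gpnmb and Cd63 thus fell to a small part of their vehicle level in each ginkgetin library.

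Further genes of the list also fell. Lgals3, which encodes galectin-3, stood at 2233, 1709 and 2030 CPM against 428, 356 and 247 CPM (log2 fold change -3.18 ± 0.35, adjusted p 0.000305 by edgeR). Apoe, the lipoprotein of cholesterol export, stood at 45968, 46106 and 69455 CPM against 21012, 11407 and 19841 CPM (-2.20 ± 0.37, adjusted p 0.00843). Both kept the order of the groups with no overlap. Mmp12 stood at 641, 495 and 1001 CPM against 0, 249 and 130 CPM (-2.98 ± 0.54, adjusted p 0.0102), and all 20 of its UMIs in ginkgetin replicate 3 came from 1 cell. Capg, which caps actin filaments, Cd9, a tetraspanin, Plin2, the coat protein of lipid droplets, and Spp1, or osteopontin, fell by 3.51, 2.38, 2.28 and 2.04 on the log2 scale. Spp1 overlapped between the groups, at 268, 196 and 403 against 101, 231 and 32.5 CPM, and was not called with library totals (-1.46, adjusted p 0.134 by edgeR). Gdf3, a TGF-beta family ligand, and Atp6v0d2, a subunit of the lysosomal proton pump, had 1 UMI each in the ginkgetin libraries, with pooled ratios of 0.0484 (0.00123 to 0.27) and 0.0445 (0.00113 to 0.248). Of the 4 genes not called, Lpl, the lipoprotein lipase, had a log2 fold change of -1.45 (adjusted p 0.0694 by edgeR), Tyrobp, the signalling partner of Trem2, -1.21, Itgax, an integrin, -2.62 and Fabp5, a fatty acid carrier, -2.0.

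The sequence around the start of Gpnmb and Trem2 is shown because the lipid-associated results above turn on them. The sequences are RefSeq promoters of build GRCm38.p6, from 250 bases before to 50 after the lowest annotated start, and 11 of the 16 lipid-associated genes had one. In capitals is a match to the AP-1 site (TGAGTCA, searched on both strands), which lies at bases 259 to 265 in Gpnmb. It was found in 2 of the 11, Gpnmb and Itgax, and in 5.2% of 27025 promoters of the same length. The E-box CACGTG was found in 1 of the 11 (7.09% of all) and the PU.1 site GAGGAAGT in 2, Mmp12 and Spp1 (3.29% of all), neither in these genes. Each match is a description of the letters only.
Gpnmb (chr6:49036268-49036567, plus strand): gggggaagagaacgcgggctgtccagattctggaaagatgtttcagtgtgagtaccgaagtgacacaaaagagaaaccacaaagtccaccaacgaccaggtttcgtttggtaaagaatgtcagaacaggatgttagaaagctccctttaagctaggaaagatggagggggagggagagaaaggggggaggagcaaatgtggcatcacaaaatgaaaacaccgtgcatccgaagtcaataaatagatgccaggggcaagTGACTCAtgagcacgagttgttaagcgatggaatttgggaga
Trem2 (chr17:48346151-48346450, plus strand): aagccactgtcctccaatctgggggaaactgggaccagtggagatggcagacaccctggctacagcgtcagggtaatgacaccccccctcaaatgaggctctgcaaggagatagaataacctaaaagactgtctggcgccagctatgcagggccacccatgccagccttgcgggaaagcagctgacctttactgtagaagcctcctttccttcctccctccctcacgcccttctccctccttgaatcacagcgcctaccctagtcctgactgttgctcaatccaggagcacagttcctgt

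Of 10 complement genes tested 3 rose and 0 fell, with a list median of -0.24, and of 11 Kupffer identity genes 3 rose and 1 fell, with a median of 0.30. With the barcode set or the replicate number as a block, 3 rose and 2 fell in each of these lists, and 4 of 12 monocyte genes fell. C4b, complement component 4, stood at 18, 26.6 and 18.7 CPM in vehicle replicates 1, 2 and 3 and at 327, 285 and 454 CPM in the ginkgetin libraries (log2 fold change 3.53 ± 0.34, adjusted p 9.25e-05 by edgeR). C6, of the terminal complement complex, stood at 60.1, 57.1 and 88.9 CPM against 629, 498 and 643 CPM (2.53 ± 0.31, adjusted p 0.0009 by edgeR). Every ginkgetin library was above every vehicle library in both genes. Cd55, which restrains complement on cell surfaces, rose by 3.19 on the log2 scale. Fcna, or ficolin A, stood at 259, 231 and 188 against 705, 1459 and 909 CPM (1.57 ± 0.33) and Cdh5, a cadherin shared by Kupffer and endothelial cells, rose by 1.41. Clec1b, at 711, 689 and 592 CPM against 453, 498 and 383 CPM, was the one called lower (-1.20, adjusted p 0.0461 by edgeR), but not with library totals (-0.59). Folr2 and Cd207 did not pass, with log2 fold changes of -1.30 (adjusted p 0.0516) and -0.63 (adjusted p 0.396). Folr2 stayed uncalled in 10 of 18 other settings and was called lower in the rest, among them the replicate block (-1.26, adjusted p 0.000556 by edgeR), DESeq2 (-1.18, adjusted p 0.0246) and, of the fits without 1 library, that without vehicle replicate 3.

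Scavenger, lysosome and iron genes moved in part. Among 12 efferocytosis and scavenger genes, Mrc1, the mannose receptor, rose from 261, 234 and 312 to 654, 854 and 1363 CPM (log2 fold change 1.28), and Gas6, the ligand of Axl and Mertk, rose by 2.02. Cd68, a lysosomal scavenger protein, fell from 713, 650 and 815 to 277, 303 and 273 CPM (-1.95 ± 0.31, adjusted p 0.00502 by edgeR), and Cd36, a fatty acid receptor, had -1.70. Of 15 lysosome genes 3 were lower: the proteases Ctsd (-2.30), at 2864, 2946 and 4442 against 780, 1335 and 1006 CPM, and Ctsz (-1.66), and the lipase Lipa (-1.40). Of 10 iron and haem genes, the transferrin receptor Tfrc rose by 1.92 and the ferritin chains Ftl1 and Fth1 and the haem enzyme Blvrb were lower by edgeR (-1.72, -1.45 and -1.37). Cd36, Ctsz, Lipa, Ftl1, Fth1 and Blvrb were not called with library totals, whereas Mrc1, Gas6, Cd68, Ctsd and Tfrc were.

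Of 12 monocyte genes tested, Ms4a7 and Clec12a were lower (-1.89 and -1.22), and of 12 interferon genes, Isg15 and Ifit3 (-2.16 and -1.92). The heat shock genes Hspa1a and Hspa1b (-1.59 and -1.48), from 12 immediate-early and stress genes, and Stmn1, a tubulin regulator of dividing cells (-2.35), from 11 cell cycle genes, were also lower. Of these, Ms4a7 and Isg15 alone were called with library totals. None of 16 macrophage transcription factors, 7 MHC class II genes or 13 inflammatory genes was called by edgeR. The transcription factors Cebpb and Id3 had log2 fold changes of -0.04 and -0.52. Cd74 and H2-Ab1, which serve antigen presentation, had -0.72 and -0.94, and Il1b and Nfkbia, of the inflammatory list, 0.66 and -0.26. Among the falls outside the lists was Ccl9, a chemokine of macrophages, at 480, 498 and 358 CPM against 0, 17.8 and 77.9 CPM (-3.85 ± 0.53, adjusted p 0.00242 by edgeR). It was not called without ginkgetin replicate 2 (adjusted p 0.0642 by edgeR).

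**Figure D4:**
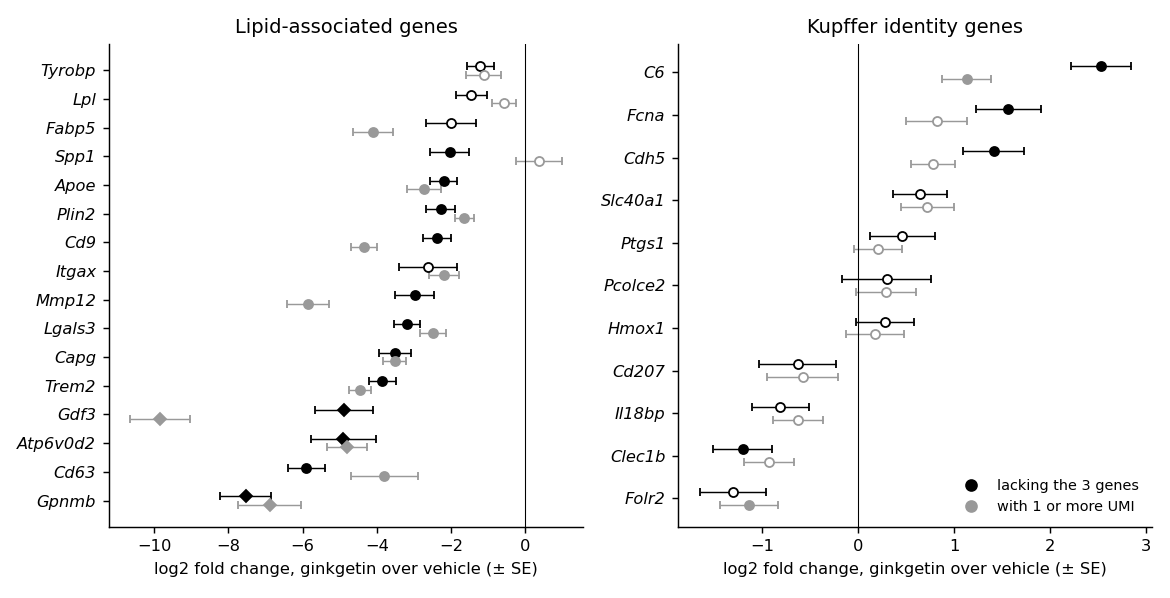
Log2 fold change (± SE), ginkgetin over vehicle, of the 16 lipid-associated and 11 Kupffer identity genes tested, in triple-negative cells (black) and receptor-positive cells (grey), with filled symbols for genes that passed the test and diamonds for genes with 3 or fewer UMIs in the ginkgetin libraries, whose position is no bound. In black, 12 of 16 lipid-associated genes are filled on the lower side and 3 of 11 Kupffer identity genes on the higher side.

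The largest rises rested on few cells or went with endothelial transcripts. Hbb-bs and Hbb-bt, the beta chains of adult haemoglobin, rose by 7.33 and 5.95 on the log2 scale, but all 156 and all 10 of their UMIs in ginkgetin replicate 1 came from 1 cell, and neither was called without ginkgetin replicate 1 or 3. Cyp26b1, Dlc1 and Rasip1, at most 3.69 CPM in each vehicle library and 13 to 125 CPM in the ginkgetin libraries, rose by 3.98, 3.94 and 3.91. They lost their calls without any 1 ginkgetin library, and were not tested without a vehicle library. Rasip1 is a gene of endothelial junctions, and Cyp26b1 degrades retinoic acid.

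Endothelial markers rose with them. Of 9 sinusoidal endothelial markers tested, 6 rose (Ehd3, Egfl7, Aqp1, Dnase1l3, Bmp2 and Clec4g) and 0 fell, with a median log2 fold change of 2.87. All 10 together stood at 171, 148 and 180 CPM in the triple-negative cells of the vehicle libraries and at 679, 1726 and 779 CPM in those of the ginkgetin libraries, where 2, 1 and 0 of them were at 0. In receptor-positive cells the sums were similar, at 186, 182 and 140 and at 572, 1912 and 608 CPM. T cell markers stood at 9.53 to 20.8 and at 97.4 to 160 CPM, hepatocyte markers at 163 to 361 and at 75.5 to 801 CPM, and B and plasma cell markers at 129 to 553 and at 252 to 1139 CPM. The markers Trac, Trbc2, Ighm and Igkc had UMIs in replicate 3 only, so the T cell and B and plasma cell sums compare unlike gene sets. Cholangiocyte markers stood at 200 to 404 and at 45.4 to 231 CPM, stellate cell markers at 29.5 to 63.2 and at 25.2 to 142 CPM, neutrophil markers at 24.9 to 223 and at 25.2 to 231 CPM and dendritic cell markers at 12 to 33.2 and at 0 to 53.4 CPM. Most of each cholangiocyte sum was Spp1, which is also on the lipid-associated list. In the ginkgetin libraries 4, 4 and 3 of the 5 cholangiocyte markers were at 0. Their part in the rises was not tested. Of the gate genes, Kdr and Ptprb together stood at 9.92, 15.5 and 5.79 CPM in the triple-negative cells of the vehicle libraries. In those of the ginkgetin libraries they stood at 101, 320 and 110 CPM. Requiring both at 0 left 667, 397 and 451 vehicle and 9, 12 and 51 ginkgetin cells. This dropped ginkgetin replicate 1 for having under 10 cells. With that setting 1 endothelial marker was called with the list median still at 2.28, and 9 of the 16 lipid-associated genes fell. In place of 3, 1 of 11 Kupffer identity genes rose, and 83 genes in all were called. The Kupffer identity genes that rose also numbered 1 with 2 or more Clec4f UMIs, with either thinned gate, and without vehicle replicate 2 or any 1 ginkgetin library. Leaving out any 1 library left 1 to 7 endothelial markers called.

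The receptor-positive cells of the same libraries, compared in the same way, gave 723 of 7928 genes (9.12%). That count was 74, 121 and 1052 without vehicle replicate 1, 2 and 3, and 773, 27 and 93 without ginkgetin replicate 1, 2 and 3. From cells of 4000 or more UMIs, which dropped ginkgetin replicate 2 for having under 10 cells, it was 8, all lower. With the replicate number as a block it was 1110. With all cells and no block, 13 of 16 lipid-associated genes fell and 0 rose, with a median of -3.65. Trem2 had a log2 fold change of -4.45 there and -3.85 in the triple-negative cells, Lgals3 -2.49 and -3.18, and C6 1.13 and 2.53. Both comparisons come from the same 6 libraries and are given side by side only.

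Within libraries, 2 of 9 monocyte genes and 6 of 16 lipid-associated genes were higher in the triple-negative than in the receptor-positive cells, and 5 of 11 Kupffer identity genes were lower. Of 11 complement genes 3 were lower and 1, Itgax, was higher. With 2 or more Clec4f UMIs required, 1 of 16 lipid-associated genes was higher and 1 of 11 Kupffer identity genes lower, at 250 to 5000 UMIs per cell 0 of 10 and 1 of 11, in the ginkgetin libraries alone 2 of 9 and 1 of 11, and with no library block 0 of 16 and 1 of 11. With the library as a block, edgeR's quasi-likelihood test called 96 of 7447 genes (1.29%), 53 higher (0.712%) and 43 lower (0.577%) in triple-negative cells. The median log2 difference was 0.75 over the lipid-associated and -0.86 over the Kupffer identity genes, beside -0.0038 for all genes tested. The p-values of this fit and of the interaction test below come from paired sums of the same 6 libraries, with 13 to 68 triple-negative cells in each ginkgetin sum, and are no measure of the spread between mice. In the vehicle libraries alone 191 genes were called and in the ginkgetin libraries alone 8, and among replicates 1 and 2 alone 56. Without vehicle replicate 1 or 3 the count was 55 or 49, and without each of the other libraries 82 to 123.

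Cx3cr1, the fractalkine receptor of monocyte-derived cells, stood at 87.0, 128 and 154 CPM in the triple-negative cells of vehicle replicates 1, 2 and 3 and at 528, 142 and 201 CPM in those of the ginkgetin libraries. In receptor-positive cells it stood at 18.4, 14.2 and 34.6 CPM and at 4, 9 and 21.7 CPM. It was thus higher in triple-negative cells in 6 of 6 libraries, with a log2 difference of 2.74 ± 0.18 (adjusted p 2.18e-14 by edgeR). Ccr2, the receptor that draws monocytes out of the marrow, was higher in 6 of 6 libraries (1.76 ± 0.14, adjusted p 6.23e-12 by edgeR), at 55.3, 52.2 and 48.5 against 18.4, 15.3 and 14.7 CPM in the vehicle libraries. In ginkgetin replicates 1 and 2 this rested on 2 Ccr2 UMIs each in the triple-negative cells, against 9 and 2 in the receptor-positive cells. Cd93, a glycoprotein of monocytes and endothelium, had the largest difference on the higher side (3.25 ± 0.20), at 33.8, 59.8 and 88.5 against 7.73, 8.26 and 7.48 CPM in the vehicle libraries. The other 7 monocyte genes tested were not called.

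Of the lipid-associated genes, Gpnmb stood at 331, 430 and 750 CPM in triple-negative and at 117, 129 and 194 CPM in receptor-positive cells of the vehicle libraries. Its log2 difference was 1.79 ± 0.14 over all libraries (adjusted p 1.01e-12 by edgeR) and 1.81 in the vehicle libraries alone, since the ginkgetin libraries held 1 and 3 of its UMIs in the 2 classes. Trem2, at 891, 1194 and 1284 against 578, 475 and 725 CPM, was higher in 6 of 6 libraries, at 1.05 ± 0.12 just past the 2-fold limit, and fell under it in the vehicle libraries alone (0.94) and without vehicle replicate 2 or ginkgetin replicate 3. Atp6v0d2 and Itgax, the integrin CD11c, were higher by 1.61 and 1.30. Mmp12 and Apoe differed by 0.64 and 0.84, under 2-fold. Ciita, the master regulator of MHC class II genes, was higher by 1.07, the one of 7 MHC class II genes called, and lost its call without ginkgetin replicate 3.

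Cxcl1 and Ccl7, chemokines for neutrophils and monocytes, and Cxcl14, a chemokine with a constitutive role, were higher by 1.08, 1.19 and 1.02, but Ccl7 was higher in only 3 of 6 libraries. In ginkgetin replicates 1 and 2, Cxcl1 had 0 and 0 UMIs in triple-negative cells, against 1 and 6 in receptor-positive cells. The call was lost for Cxcl1 without ginkgetin replicate 3, for Ccl7 without replicate 1 of either group and for Cxcl14 without replicate 2 or 3 of either group. Pf4, platelet factor 4, was higher by 1.5, and 277 of its 318 UMIs in ginkgetin replicate 3 came from 1 cell. Its call was lost without that library, and its difference was 0.99 with the deepest cell of each sum left out. Jchain and Mzb1, plasma cell genes, were also called higher, and 1929 of the 2046 Jchain UMIs of vehicle replicate 2 and 238 of the 376 Mzb1 UMIs of vehicle replicate 1 came from 1 cell each.

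Among the 5 Kupffer identity genes that were lower was Folr2. It stood at 645, 569 and 436 CPM in triple-negative and at 1377, 1242 and 976 CPM in receptor-positive cells of the vehicle libraries, and at 352, 463 and 240 against 724, 549 and 882 CPM in the ginkgetin libraries. It was lower in 6 of 6 libraries (log2 difference -1.12 ± 0.10, adjusted p 5.98e-11 by edgeR). Fcna stood at 259, 231 and 188 against 888, 879 and 558 CPM in the vehicle libraries (-1.43 ± 0.11), and Pcolce2, an enhancer of collagen processing, at 42.5, 29.8 and 40.9 against 122, 119 and 148 CPM (-1.70 ± 0.13). Both were lower in 6 of 6 libraries. Colec12, a scavenger receptor of the collectin family, was lower by edgeR (-1.83 ± 0.25) in 5 of 6 libraries. Clec1b and Cd207 differed by -0.34 and 0.63, under 2-fold.

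**Figure D5:**
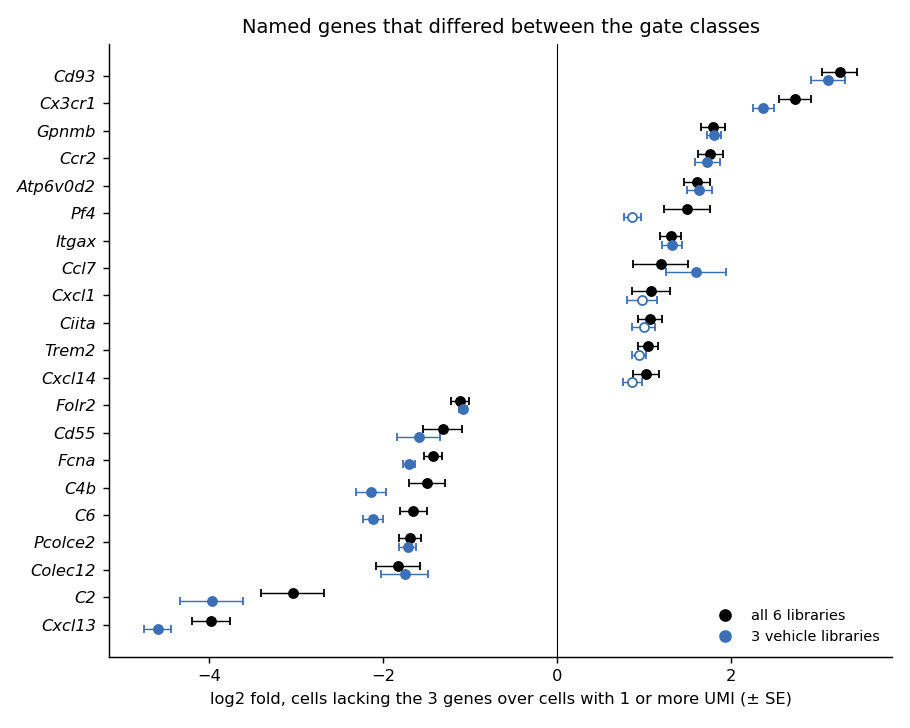
Log2 difference (± SE), triple-negative over receptor-positive cells within libraries, of the named genes called over all 6 libraries (black), with the same over the 3 vehicle libraries (blue) and filled points for genes that passed the test. Cd93 and Cx3cr1 lie farthest to the higher side and Cxcl13 and C2 farthest to the lower side.

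The largest difference of all was that of Cxcl13, the chemokine that draws B cells. It stood at 2.98, 13 and 2.04 CPM in triple-negative and at 48.3, 406 and 47.4 CPM in receptor-positive cells of vehicle replicates 1, 2 and 3. In the ginkgetin libraries it stood at 226, 160 and 64.9 against 1499, 414 and 354 CPM. In the receptor-positive cells of the vehicle libraries, 1 cell gave 66 of 100, 182 of 344 and 91 of 152 Cxcl13 UMIs. It was lower in the triple-negative cells of 6 of 6 libraries, by -3.98 ± 0.22 on the log2 scale (adjusted p 4.00e-17 by edgeR). Its RefSeq promoter (GRCm38.p6, chosen as above) is shown for that reason, with a TATA box (TATAAA, on either strand in 14.1% of all promoters) in capitals at bases 205 to 210.
Cxcl13 (chr5:95956689-95956988, plus strand): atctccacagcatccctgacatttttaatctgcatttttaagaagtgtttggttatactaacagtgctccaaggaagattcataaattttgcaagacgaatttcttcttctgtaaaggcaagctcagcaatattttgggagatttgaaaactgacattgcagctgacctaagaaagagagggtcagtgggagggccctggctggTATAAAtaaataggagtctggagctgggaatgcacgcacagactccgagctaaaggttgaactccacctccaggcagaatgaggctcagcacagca

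The complement genes C2, C4b and Cd55 and the terminal component C6 were lower in the triple-negative cells. C2, which forms the C3 convertase with C4, stood at 0.744, 1.48 and 0.454 CPM in triple-negative and at 15, 23.6 and 5.92 CPM in receptor-positive cells of the vehicle libraries. In the ginkgetin libraries it stood at 0, 71.2 and 58.4 against 96.0, 81.0 and 132 CPM. C2, C4b, C6 and Cd55 were lower in 6 of 6 libraries, by -3.04 ± 0.36, -1.5 ± 0.21, -1.65 ± 0.16 and -1.32 ± 0.22. In the vehicle libraries alone the differences were -3.97, -2.14, -2.12 and -1.59, and in the ginkgetin libraries alone -1.06, -0.14, -0.58 and -0.19, none of the latter with an adjusted p under 0.05 by edgeR. Without vehicle replicate 3 the call of Cd55 was lost.

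No gene of the transcription factor (15 tested), lysosome (15), iron and haem (10), interferon (12), cholesterol (10), immediate-early (12) or cell cycle (11) lists was called between the 2 classes by edgeR. Cebpb and Id3 differed by -0.07 and 0.09, the lysosomal protease Ctsb and the saposin precursor Psap by -0.13 and 0.05, and Ftl1 and Fth1 by 0.01 and -0.22. Irf7 differed by -0.39, Pltp by -0.26, Dusp1 and Junb by 0.00 and 0.26 and Tubb5 and Stmn1 by 0.02 and 0.43. Summed over their lists, lysosome genes stood at 25069, 23519 and 28820 CPM in triple-negative and at 25064, 24428 and 27417 CPM in receptor-positive cells of the vehicle libraries.

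The difference of the ginkgetin effect between the 2 classes was tested directly. By edgeR's interaction test, 58 of 8710 genes (0.666%) passed, 47 with the more positive and 11 with the more negative effect in triple-negative cells. C4b, C2 and C6 had the more positive effect in the triple-negative cells, with differences of 1.95 ± 0.23 (adjusted p 3.24e-14), 2.79 ± 0.66 (adjusted p 0.00461) and 1.44 ± 0.19 (adjusted p 4.12e-11) on the log2 scale. As given above, a count of 0 did not separate the classes by level in ginkgetin replicates 2 and 3. The part of this in the differences of effect was not tested. Cxcl13 (2.18 ± 0.39, adjusted p 7.52e-06) had the same sign, but its difference was -0.39 where 2 or more Clec4f UMIs were required. The call of C2 was lost without ginkgetin replicate 2 or 3. Trem2, Gpnmb, Folr2, Cd207 and Clec1b did not pass, with differences of 0.74, -0.80, -0.22, 0.19 and -0.25 and adjusted p of 0.825 or more.

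Of the lipid-associated genes, Mmp12, Fabp5 and Cd9 had the less negative effect in triple-negative cells (2.73, 3.01 and 2.29) and Spp1 the more negative one (-2.62 ± 0.34). Spp1 stood at 268, 196 and 403 against 101, 231 and 32.5 CPM in triple-negative cells and at 69.1, 56.7 and 30.2 against 40.0, 211 and 42.8 CPM in receptor-positive cells. The triple-negative cells of ginkgetin replicate 3 held 154024 UMIs, 25155 of them in 1 cell. For each of several genes 1 cell gave most UMIs of that library: 65 of 69 for Fabp5, 14 of 21 for Cd9, 105 of 111 for the chemokine Cxcl2 and all 173 and 142 for Saa3, an acute-phase protein, and Alox15, a lipoxygenase. Mmp12 rested on 14 and 20 UMIs in ginkgetin replicates 2 and 3, and where Kdr and Ptprb had to be 0 its difference was -8.78 (adjusted p 0.438 by edgeR). With the deepest cell of each sum left out, 19 genes were called, 18 of them among the 58. The effect was more positive for 9 and more negative for 10 of the 19. C2, C4b, C6, Cxcl13, Mmp12, Spp1, Stmn1, the collagenase Mmp13 (2.80) and Bbx (-2.44) kept their call, and Fabp5, Cd9, Pf4 (2.71), Cx3cr1 (1.41), Itgam (1.98), Ier3 (1.24) and Plac8 (-1.17) lost it. Cxcl2 turned from 1.65 to -2.27. When any 1 library was left out, Bbx kept its call in 1 of 6 fits, Stmn1 lost it without vehicle replicate 1 or 2 or ginkgetin replicate 3, and Mmp13 lost it without ginkgetin replicate 3. Without ginkgetin replicate 3 the number called was 17 (8 more positive and 9 more negative), and with replicates 1 and 2 alone it was 13 (7 and 6).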

How the data were processed

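The authors deposited raw UMI counts per gene and cell barcode, 1 table per library, from 10X Genomics sequencing of liver non-parenchymal cells (3 vehicle and 3 ginkgetin libraries). Per the labels the genome builds were GRCm38 and mm10. The aligner and counter are not given in the sources used here. No columns of authors' comparisons were present, and 0 sample columns were left unused. Cells were selected as described in the report. The study's stated limits of 250 to 5000 UMIs per cell were an alternative. No doublets were removed, and an alternative left out the 5% of cells per library with the highest Scrublet scores (expected rate 6%).

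Counts were summed per library and cell class where at least 10 cells were present, and tested with edgeR 4.0.16 (quasi-likelihood, TMM scaling, filterByExpr) in R 4.3.3, with Benjamini-Hochberg adjustment over all genes tested. A gene was called at an adjusted p under 0.05 and a fold change over 2. DESeq2 1.42.0 and limma 3.58.1 were alternatives. Shares were compared by exact permutation tests written in Python 3.11.15 (numpy 2.4.6, pandas 2.3.3). Intervals were computed with scipy 1.17.1 and figures drawn with matplotlib 3.10.9. The scripts were tested on simulated data.

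Members and gene lists were chosen with earlier results of these data known. Named genes were 6 share genes, up to 4 called genes of each list (with none called, the 2 with the highest mean CPM), and per comparison up to 6 called genes in each direction with separate groups and at least 50 CPM. Jchain, Mzb1, Saa3, Alox15 and Hbb-bt, and genes named for completing a list, were chosen after their values were seen. Some genes that the rule named are not reported here. The alternatives chosen after seeing the data were the depth range of 2000 to under 4000 UMIs, a zero gate of at most 1 UMI, replicates 1 and 2 only, single groups only, the barcode set as a block, the deepest cell of each sum left out and scaling to library totals.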

Additional observations from a re-analysis of the deposited data

Results flagged for a closer look

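In 5 of the genes that the naming rule gave for the ginkgetin comparison, the effect of ginkgetin (log2 fold change against vehicle) differed between triple-negative and receptor-positive cells by edgeR's interaction test across all genes. The effect in triple-negative minus that in receptor-positive cells was 1.95 for C4b, 1.44 for C6, 2.73 for Mmp12 and -1.58 for Stmn1, which was not called without vehicle replicate 1 or 2 or ginkgetin replicate 3. It was 3.97 for Hbb-bs, with all 156 UMIs of ginkgetin replicate 1 in 1 cell. Of the lipid-associated genes described outside that rule, Fabp5 (3.01), Cd9 (2.29) and Spp1 (-2.62) passed the same test. The limit of the zero gate in ginkgetin replicates 2 and 3, given above, applies to all of these.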

How the results depend on the processing

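The lower triple-negative share of the Kupffer gate held under every alternative run, from -51.7 to -74.8 points, and from -65.3 to -61.2 points without any 1 library. The triple-negative share of all kept cells overlapped between the groups at 250 to 5000 UMIs per cell. Of the shares of cells with a UMI, Cd207 turned to 12.8 points with thinning to 2000 UMIs and Folr2 to -25.1 points without thinning.

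Genes called between ginkgetin and vehicle in triple-negative cells (321) numbered 95 at 250 to 5000 UMIs per cell, 123 with the zero gate thinned, 66 with all gates thinned, 141 with 2 or more Clec4f UMIs, 83 with Kdr and Ptprb at 0, 596 with at most 1 UMI of the receptor genes, 211 with DESeq2's size factors, 552 with DESeq2, 845 with no filter, 815 with the barcode set as a block, 526 in replicates 1 and 2, and 11 to 623 without any 1 library. Genes called between the classes (96) numbered 4, 186, 31, 229, 4, 191, 8 and 56 at 250 to 5000 UMIs, at 4000 or more UMIs, with 2 or more Clec4f UMIs, with no filter, without the library block, in vehicle libraries, in ginkgetin libraries and in replicates 1 and 2, and 49 to 123 without any 1 library. Genes with a different effect (58) numbered 8, 37, 8, 19, 11, 32 and 13 at 250 to 5000 UMIs, with all gates thinned, with 2 or more Clec4f UMIs, without the deepest cell of each sum, with DESeq2, with limma and in replicates 1 and 2, and 17 to 73 without any 1 library. Ginkgetin replicate 1 was dropped, for under 10 cells, with 2 or more Clec4f UMIs and with Kdr and Ptprb at 0, and vehicle replicate 3 at 250 to 5000 UMIs between the classes. At 4000 or more UMIs only the vehicle libraries had 10 cells of both classes. From cells of 4000 or more UMIs, the ginkgetin effect in triple-negative cells and its difference could not be fitted.

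The difference of effect changed sign for Cxcl13 (-0.39) with 2 or more Clec4f UMIs and for Mmp12 (-8.78) with Kdr and Ptprb at 0. Cxcl2 had -3.79, -2.37, -2.27, -1.64, -4.03 and -4.17 at 250 to 5000 UMIs, with 2 or more Clec4f UMIs, without the deepest cell, with DESeq2, in replicates 1 and 2 and without ginkgetin replicate 3. Fabp5 had -0.47, -0.97, -0.31, -2.72 and -3.21 in the same order without the Clec4f setting. Ier3 had -1.26 at 250 to 5000 UMIs and -0.12 in replicates 1 and 2 and without ginkgetin replicate 3. Itgam had -0.086 and Pf4 -0.99 with 2 or more Clec4f UMIs, -0.23 and -0.19 without ginkgetin replicate 3, and Pf4 -0.079 at 250 to 5000 UMIs. Without any 1 library the values of Cxcl2, Fabp5, Ier3, Itgam and Pf4 reached up to 2.05, 3.62, 1.41, 2.23 and 3.34. The cause was not tested. For the named genes, 776 of 1059 values kept direction and call for the ginkgetin effect, 791 of 885 between the classes and 596 of 725 for the difference of effect, and 0, 0 and 21 changed sign with a call on either side (uncalled values that crossed 0 are not counted).

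With the replicate number as a block (replicate block), 700 genes were called for the ginkgetin effect and 36 for its difference, and the share had an exact sign-flip p of 0.25, the smallest that 3 pairs allow. The deviations of same-numbered libraries correlated at 0.103, 0.0433 and 0.235, and vehicle replicate 2 correlated more with ginkgetin replicate 1 (0.106), so the numbers were not taken to pair the triple-negative samples. In receptor-positive cells the same-numbered correlations were 0.195, 0.126 and 0.454, and the replicate block gave 1110 calls there in place of 723. With the replicate block all 16 lipid-associated genes fell, in place of 12. The 13 to 68 triple-negative cells of each ginkgetin library, with 39739 to 154024 UMIs, limit all ginkgetin values.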
